A study of Rattus norvegicus with 4 samples.

Results

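The nuclear-encoded subunits of the mitochondrial respiratory chain were followed in primary hippocampal neuron cultures from rat embryos after knockdown of Gld2. Members were the genes whose symbol in the platform's annotation, with 1 symbol per probe set, is that of a subunit of complex I (Ndufa, Ndufb, Ndufc, Ndufs or Ndufv), complex II (Sdh), complex III (Uqcr), complex IV (Cox4 to Cox8) or complex V (Atp5), or cytochrome c (Cycs). This gave 75 of 14497 genes, with 32 in complex I, 4 in complex II, 7 in complex III, 15 in complex IV and 16 in complex V, besides Cycs. The groups were 2 cultures given Gld2 shRNA, called knockdown cultures here, and 2 given scrambled shRNA, called controls, and no other treatment or genotype is labelled. Gld2, whose current gene symbol is Tent2, is a cytoplasmic poly(A) polymerase that adds adenosines to the tails of selected mRNAs. Per the labels, the RNA was caught on a poly(U) Sepharose column and eluted with heat, so a value depends on both the amount of a transcript and its recovery on that column, which cannot be told apart. The study's title gives poly(A) RNA profiling after Gld2 knockdown as its purpose. The labels do not give the vector, its promoter or how many shRNA sequences were used, nor whether replicates are separate preparations. The p-values therefore reflect only the spread among these 4 cultures, which may be technical.

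Neurons spend most of their ATP on pumping ions across the membrane, and oxidative phosphorylation supplies most of it. Complex I takes electrons from NADH and complex II takes them from succinate. Complex III passes them to the small carrier cytochrome c, complex IV hands them to oxygen, and complex V uses the resulting proton gradient to make ATP. Complex II is built from nuclear genes alone, whereas the other complexes also hold subunits encoded in mitochondrial DNA, which were not analysed here. Factors such as NRF1, the ETS protein GABP and YY1 are known to act on promoters of many nuclear-encoded subunits.

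Values are log2 RMA intensities deposited by the authors, and every difference below is Gld2 shRNA minus scrambled shRNA on that scale. The array medians were 8.41 and 8.48 in the knockdown cultures and 8.41 and 8.43 in the controls. Having only 4 arrays limits the precision. Tent2, the targeted gene, stood at 9.50 and 9.35 in the knockdown cultures and at 10.73 and 10.67 in the controls (difference -1.28, limma, adjusted p = 0.000754). Of the 14497 genes, 245 rose and 349 fell at an adjusted p under 0.05 in limma, which is 1.69% and 2.41%. That split turned on the scaling, with 370 higher and 378 lower after cyclic loess, 266 and 246 with the gene length trend removed, 558 and 1367 when each array was centred on the median of all probe sets and 218 and 94 when it was centred on that of its named genes. The highest difference over all genes was 4.16 in Ifit3, an interferon-induced gene named after its value was seen, and the part of such genes in the members' differences was not tested. Among neuron markers, 13 of 14 were in the brightest 20% of genes by signal, among them Map2, Tubb3, Snap25 and Rbfox3.

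One respiratory chain gene, Ndufa10, fell after Gld2 knockdown at the probe set used for it, and no member rose. A further probe set, annotated to both Ndufa10 and Ndufa10l1, did not fall (0.023). The call was also lost when all probe sets were tested together. Of the other 74 members, 61 had a mean above that of the controls without passing the test. In these cultures fewer cells of a type and less RNA per cell cannot be told apart. In limma 0 of 75 members were called higher, against 1.69% of all genes, and 1 was called lower, against 2.41%. At an unadjusted p under 0.05 in limma, 7 members were higher (9.33%, against 9.24% of all genes) and 1 was lower (1.33%, against 16.2%). The median difference over the members was 0.083, a factor of 1.06, against -0.015 over all genes. In the members 61 differences were above 0 and 14 below, or 81.3% above 0 against 46.2% of all genes. Both knockdown cultures lay above both controls in 43 members (57.3%), against 24.0% of all genes, and below both in 5 (6.67%), against 34.5%. These shares describe a list that was chosen with earlier results known, so no test of the list was made. With 2 cultures a group an exact permutation test of 1 gene cannot go below p = 0.333.

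**Figure D1:**
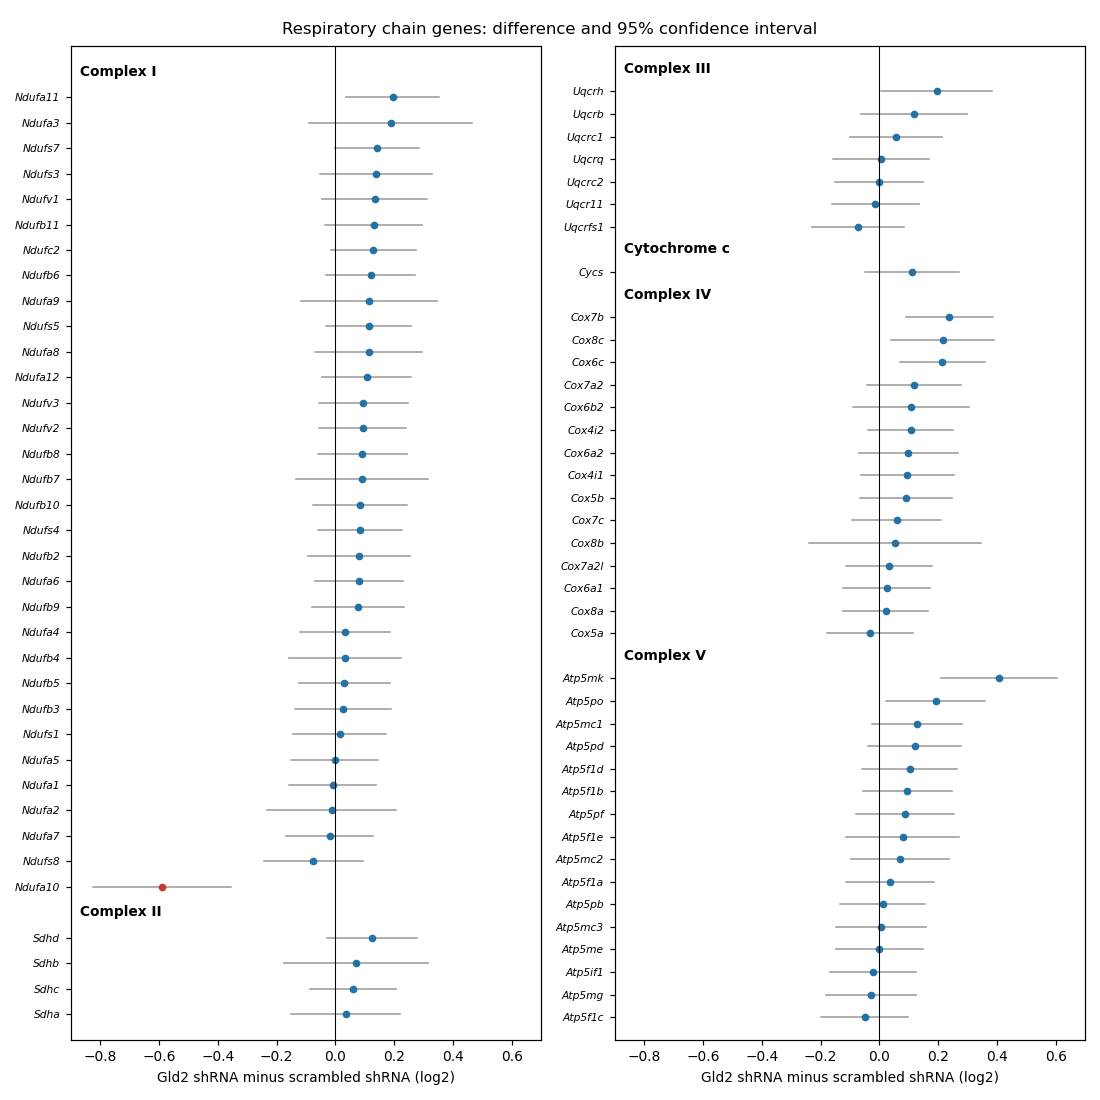
Difference of each of the 75 respiratory chain genes (x axis, log2, Gld2 shRNA minus scrambled shRNA, 2 cultures each), grouped by complex, with 95% confidence intervals from limma as grey lines. Ndufa10 (red) is the 1 gene past the adjusted threshold, and 61 of the 75 points lie to the right of 0.

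The intervals bound a change only as far as the spread among these 4 cultures goes. In 73 of 75 members the 95% confidence interval stayed within 1.5-fold in either direction, against 13702 of 14497 over all genes. Among the members the exceptions were Ndufa10 and Atp5mk. With a prior variance that follows the signal level, a setting of the same test, 11 members were called higher (14.7%, against 4.28% of all genes). These 11 were Ndufa11, Ndufs7, Ndufc2, Ndufb6, Uqcrh, Cox7b, Cox6c, Cox7a2, Atp5mk, Atp5po and Atp5mc1.

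Promoters are shown for 4 members whose values open the accounts of their complexes: Ndufa10, the only call, Ndufa11, with the highest difference of complex I, Cox7b, with that of complex IV, and Atp5mk, with that of complex V. The sequences are RefSeq windows of build GRCr8, read along the gene's own strand from 250 bases before to 50 bases after the annotated start. Capitals mark matches on either strand to the palindromic NRF1 motif, with 1 of its 10 positions free, or to ETS (CCGGAAG), YY1 (AANATGGCG) or GC box (GGGCGG) letters.
Ndufa10, chr9:100489215-100489514, minus strand: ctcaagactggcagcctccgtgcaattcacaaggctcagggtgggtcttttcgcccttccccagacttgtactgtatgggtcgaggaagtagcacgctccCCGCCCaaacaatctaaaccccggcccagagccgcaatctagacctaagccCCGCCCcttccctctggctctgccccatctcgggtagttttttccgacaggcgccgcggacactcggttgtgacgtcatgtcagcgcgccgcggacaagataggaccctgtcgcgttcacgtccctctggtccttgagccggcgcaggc
Ndufa11, chr9:1637364-1637663, plus strand: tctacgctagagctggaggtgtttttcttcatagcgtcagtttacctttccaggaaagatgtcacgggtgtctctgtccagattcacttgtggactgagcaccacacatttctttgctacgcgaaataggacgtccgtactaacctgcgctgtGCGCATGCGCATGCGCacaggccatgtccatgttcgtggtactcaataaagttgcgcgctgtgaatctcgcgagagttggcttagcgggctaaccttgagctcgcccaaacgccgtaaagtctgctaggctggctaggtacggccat
Cox7b, chrX:75148786-75149085, plus strand: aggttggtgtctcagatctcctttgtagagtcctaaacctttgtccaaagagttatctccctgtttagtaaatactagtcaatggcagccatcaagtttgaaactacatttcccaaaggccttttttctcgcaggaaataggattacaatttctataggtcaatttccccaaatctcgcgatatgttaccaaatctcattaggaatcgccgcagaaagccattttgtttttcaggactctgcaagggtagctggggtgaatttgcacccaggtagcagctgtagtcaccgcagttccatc
Atp5mk, chr1:255921998-255922297, minus strand: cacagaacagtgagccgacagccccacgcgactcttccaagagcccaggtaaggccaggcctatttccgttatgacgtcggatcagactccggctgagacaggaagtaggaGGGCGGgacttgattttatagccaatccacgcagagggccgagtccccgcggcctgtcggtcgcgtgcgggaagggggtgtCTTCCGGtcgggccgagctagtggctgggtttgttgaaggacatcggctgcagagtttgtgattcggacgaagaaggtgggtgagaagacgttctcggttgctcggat
The Ndufa10 window held GC boxes only, and the Cox7b window held none of the 4 motifs. The Ndufa11 window had 2 overlapping NRF1 matches in 1 run of capitals, and the Atp5mk window had 1 ETS match and 1 GC box that did not overlap.

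Of the 75 members, 67 matched a promoter in the RefSeq table. NRF1 letters occurred in 13 of them (19.4%, against 4.71% of 27457 promoters), ETS letters in 20 (29.85%, against 9.22%), YY1 letters in 12 (17.91%, against 3.33%) and GC boxes in 29 (43.28%, against 34.89%). Sdha had 3 NRF1 matches, and Atp5me was the 1 member with both NRF1 and ETS letters. The median difference was 0.056 with NRF1 letters and 0.083 without, 0.052 with ETS letters and 0.084 without, 0.082 with YY1 letters and 0.081 without, and 0.080 with a GC box and 0.083 without, given as a description with no test. A match of letters is not a binding site.

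In complex I, the entry point for electrons from NADH, Ndufa10 fell while most other subunits stood slightly higher. Ndufa10 encodes an accessory subunit of the complex. Its probe set lay in the fifth decile of signal, and the gene in the seventh decile of length. In those deciles 43.6% and 38.1% of all genes lay below both controls, with median differences of -0.061 and -0.030. The Ndufa10 probe set stood at 8.62 and 8.36 in the knockdown cultures, against 9.07 and 9.08 in the controls. Both knockdown cultures lay below both controls, and they differed from each other more than the controls did. The means were 8.49 ± 0.183 in the knockdown cultures and 9.08 ± 0.00311 in the controls (SD, n = 2 each), a factor of 1.51, with a difference of -0.59, a standard error of 0.0953 and an interval from -0.82 to -0.36 (limma, adjusted p = 0.0346). The size was -0.72 without Gld2 shRNA replicate 1 and -0.46 without Gld2 shRNA replicate 2. It no longer passed when scrambled shRNA replicate 1 was left out (limma, adjusted p = 0.282) or its replicate 2 (0.235), and when all probe sets were tested together (0.0816).

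A further probe set, which the annotation gives to both Ndufa10 and its relative Ndufa10l1, went another way. It stood at 12.33 and 12.37 in the knockdown cultures and at 12.30 and 12.35 in the controls. The groups overlapped, and the difference was 0.023 with an interval from -0.15 to 0.19 (limma over all probe sets, adjusted p = 0.860). That interval excludes the -0.59 of the first probe set. The pair shared 1 RefSeq transcript accession in the annotation, so the 2 probe sets named for Ndufa10 disagree. The fall is therefore a result of 1 probe set and not of every measurement of the gene, and which transcripts each one reads was not tested.

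**Figure D2:**
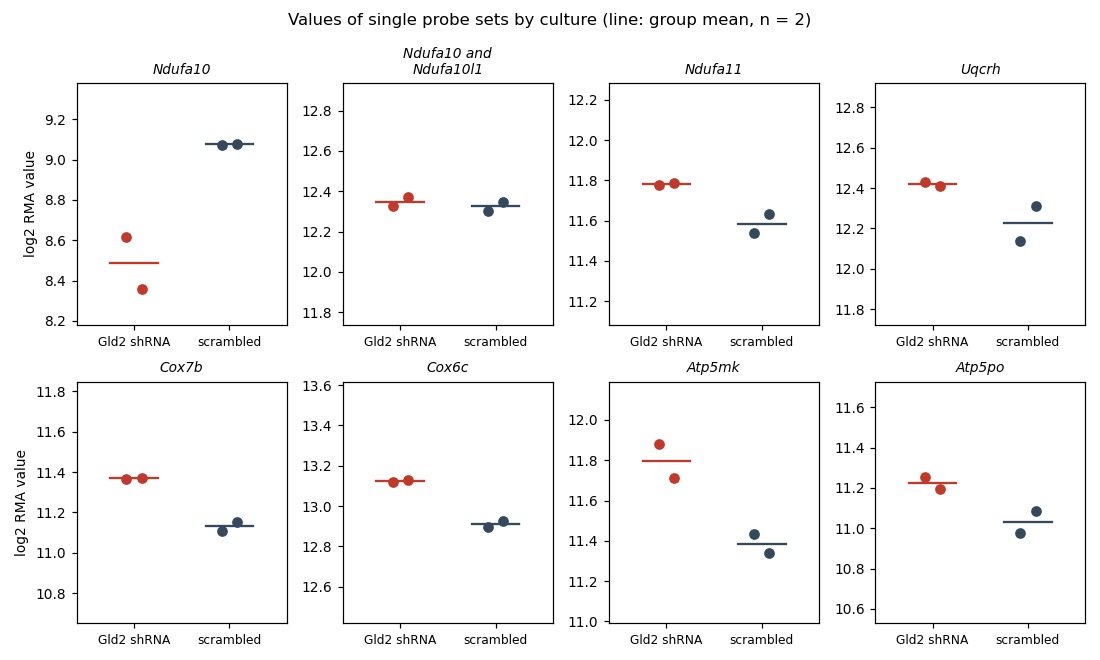
Log2 RMA values of 8 probe sets (y axis, the same span in each panel) in the 2 knockdown cultures (red) and the 2 controls (dark blue), with group means as lines. The Ndufa10 probe set is lower in both knockdown cultures, the probe set shared with Ndufa10l1 overlaps between groups, and the other 6 genes are higher without passing the adjusted threshold.

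Ndufa11, an accessory subunit of the membrane arm, had the highest difference of complex I. It stood at 11.78 and 11.79 in the knockdown cultures and at 11.54 and 11.63 in the controls, without overlap (0.20, interval 0.037 to 0.35, limma, adjusted p = 0.140). Ndufs7, a core subunit that carries an iron-sulfur cluster, stood at 12.39 and 12.39 in the knockdown cultures against 12.25 and 12.25 in the controls. Its groups were tight and apart, yet the difference of 0.14 did not pass (limma, adjusted p = 0.201). Ndufc2, at 13.00 and 13.01 in the knockdown cultures against 12.86 and 12.89 in the controls, differed by 0.13 (adjusted p = 0.232, limma).

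The other core subunits, which hold the flavin and iron-sulfur centres, were spread around small values. Ndufv1, which binds NADH and the flavin, differed by 0.13 (11.84 and 11.86 in the knockdown cultures, 11.64 and 11.79 in the controls). Ndufs3, a core subunit of the arm in the matrix, differed by 0.14. Ndufs1, the largest iron-sulfur subunit, stood at 11.16 and 11.15 in the knockdown cultures, against 11.18 and 11.10 in the controls. Its groups overlapped, and its difference of 0.014 had an interval from -0.14 to 0.17. Ndufs8, another iron-sulfur subunit, was at 10.66 and 10.61 in the knockdown cultures against 10.65 and 10.77 in the controls, a difference of -0.075 that did not pass (limma, adjusted p = 0.523). The 9 Ndufs and Ndufv genes are a group by name that also holds the accessory subunits Ndufs4, Ndufs5 and Ndufv3. Over these 9 the median was 0.095. In 7 (77.8%, against 24.0% of all genes) both knockdown cultures lay above both controls, these 3 accessory subunits among them.

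Among the Ndufa, Ndufb and Ndufc genes, the name groups behaved unevenly. All 11 Ndufb and Ndufc genes had differences above 0, from 0.026 in Ndufb3 to 0.13 in Ndufb11, with a median of 0.084. Of 12 Ndufa genes 7 were above 0 and 5 below, with a median of 0.056. In 4 of them (33.3%, against 24.0% of all genes) both knockdown cultures lay above both controls. Ndufa3, at 11.76 and 11.96 in the knockdown cultures and 11.54 and 11.80 in the controls, had a difference of 0.19 with overlapping groups. Ndufa4, which carries a complex I name but is known as a subunit of complex IV, differed by 0.033. Placing it in complex IV left the medians at 0.090 in complex I and 0.093 in complex IV. The difference between these name groups was not tested. In complex I as a whole the median was 0.087, with 26 of 32 above 0. Above both controls were 18 (56.2%, against 24.0% of all genes), and below both was 1 (3.12%, against 34.5%).

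Complex II, which also serves in the citric acid cycle, had 4 differences above 0 and no call. Sdha, the flavoprotein, stood at 11.41 and 11.31 in the knockdown cultures and 11.26 and 11.39 in the controls, with overlap (0.035). Sdhb, the iron-sulfur subunit, stood at 11.72 and 11.53 in the knockdown cultures and 11.46 and 11.66 in the controls, also with overlap (0.069). The membrane anchors were tighter. Sdhd had 11.11 and 11.11 in the knockdown cultures and 10.95 and 11.03 in the controls, a difference of 0.12 without overlap (limma, adjusted p = 0.271). Sdhc differed by 0.060. Against the control mean, the complex II median was 0.10 in Gld2 shRNA replicate 1 and 0.016 in Gld2 shRNA replicate 2. The displacement also turned on the control, at 0.13 against scrambled shRNA replicate 1 alone and 0.011 against scrambled shRNA replicate 2 alone. Scrambled shRNA replicate 2 exceeded scrambled shRNA replicate 1 in all 4 genes.

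Complex III had the lowest median, 0.0066, with 4 of 7 differences above 0, and it was -0.017 with arrays centred on the median of all probe sets. Uqcrh, the acidic hinge protein that helps cytochrome c dock, was the highest, at 12.43 and 12.41 in the knockdown cultures against 12.14 and 12.31 in the controls. The groups did not overlap, and the difference was 0.19 (interval 0.0045 to 0.38, limma, adjusted p = 0.190). Uqcrb differed by 0.12 and Uqcrc1, one of the large core proteins, by 0.056. Uqcrc2, the other core protein, stood at 12.25 and 12.30 in the knockdown cultures and 12.28 and 12.27 in the controls, a difference of -0.0021. Uqcrfs1, the Rieske iron-sulfur protein, was below both controls, at 10.08 and 10.09 in the knockdown cultures against 10.11 and 10.20 in the controls (-0.072, limma, adjusted p = 0.508). Uqcr11 and Uqcrq were at -0.014 and 0.0066.

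Cycs, the cytochrome c gene, stood at 12.21 and 12.27 in the knockdown cultures and at 12.16 and 12.09 in the controls. The groups were apart, and the difference of 0.11 had an interval from -0.048 to 0.27 (limma, adjusted p = 0.324).

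Complex IV, cytochrome c oxidase, had the highest share of the 5 complexes with genes above both controls. This was 11 of 15 (73.3%, against 24.0% of all genes), and the median was 0.095. Cox7b, a small accessory subunit, stood at 11.37 and 11.37 in the knockdown cultures, against 11.11 and 11.15 in the controls. The groups were well apart, and the difference was 0.24 (interval 0.091 to 0.39, limma, adjusted p = 0.0871). Cox6c, another accessory subunit, stood at 13.12 and 13.13 in the knockdown cultures against 12.90 and 12.92 in the controls (0.21, interval 0.069 to 0.36, limma, adjusted p = 0.104). The subunits that clasp the mitochondrially encoded core differed less. Cox4i1 stood at 12.57 and 12.61 in the knockdown cultures and 12.45 and 12.53 in the controls (0.095), and Cox5b differed by 0.090. Cox5a was the only complex IV gene below 0, at 12.09 and 12.09 in the knockdown cultures against 12.10 and 12.14 in the controls (-0.032). Cox7a2l, a factor in the assembly of supercomplexes, differed by 0.033, and Cox7c by 0.058.

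Several complex IV subunits exist as forms for particular tissues. The widespread forms Cox6a1, Cox7a2 and Cox8a differed by 0.024, 0.12 and 0.022. Their counterparts known from other tissues include Cox6a2 and Cox8b of heart and skeletal muscle, Cox6b2 and Cox8c of testis and Cox4i2 of lung. Cox8c stood at 7.35 and 7.49 in the knockdown cultures and 7.22 and 7.19 in the controls (0.22, limma, adjusted p = 0.143). Cox4i2 stood at 7.27 and 7.27 in the knockdown cultures and 7.18 and 7.15 in the controls (0.11), and Cox6a2 and Cox6b2 differed by 0.099 and 0.11. Cox8b, at 6.38 and 6.74 in the knockdown cultures and 6.53 and 6.48 in the controls, was the most variable (0.054). Cox8c, Cox4i2 and Cox8b lay in the second decile of signal, where the median difference of all 1450 genes was 0.084 and 34.4% lay above both controls. No detection calls were used, so whether these 3 probe sets measured a transcript was not tested.

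Complex V, the ATP synthase, held the largest upward difference of any member. Atp5mk, a small membrane subunit that helps hold synthase dimers together, stood at 11.88 and 11.71 in the knockdown cultures, against 11.43 and 11.34 in the controls. The groups were clearly apart, with means of 11.79 ± 0.119 in the knockdown cultures and 11.39 ± 0.0639 in the controls (SD, n = 2 each), a factor of 1.33. The difference was 0.41 with a standard error of 0.0806 and an interval from 0.21 to 0.60, and it missed the threshold narrowly (limma, adjusted p = 0.0528). Of 17 alternative settings 11 moved it past their threshold, among them cyclic loess (adjusted p = 0.0240) and leaving out Gld2 shRNA replicate 1 (0.0415) or Gld2 shRNA replicate 2 (0.0470), all in limma. Leaving out the first control gave an adjusted p of 0.308 in limma, and leaving out the second 0.317.

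The other parts of the synthase differed by less. Atp5po, the stalk protein known as OSCP, stood at 11.25 and 11.19 in the knockdown cultures and 10.98 and 11.09 in the controls (0.19, interval 0.022 to 0.36, limma, adjusted p = 0.164). The further stalk subunits Atp5pd, Atp5pf and Atp5pb differed by 0.12, 0.087 and 0.011. In the catalytic head, Atp5f1b, the beta subunit that makes ATP, stood at 13.01 and 12.94 in the knockdown cultures and 12.88 and 12.87 in the controls, without overlap (0.095). Its partner Atp5f1a, the alpha subunit, overlapped between groups (12.37 and 12.43 in the knockdown cultures, 12.38 and 12.35 in the controls, 0.036). Atp5f1c, the gamma shaft, lay below both controls at 10.09 and 10.10 in the knockdown cultures against 10.17 and 10.12 in the controls (-0.050). Atp5f1d and Atp5f1e, of the central stalk, differed by 0.10 and 0.080.

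The 3 genes Atp5mc1, Atp5mc2 and Atp5mc3 encode one and the same mature c-ring protein, and they had differences of 0.13, 0.070 and 0.0049. Atp5mc1 stood at 12.10 and 12.13 in the knockdown cultures and 11.95 and 12.02 in the controls, without overlap (limma, adjusted p = 0.256). Atp5if1, the inhibitor that blocks the synthase from running backwards, stood at 11.98 and 11.99 in the knockdown cultures against 11.99 and 12.02 in the controls, a difference of -0.023. The membrane subunits Atp5mg and Atp5me were at -0.029 and -0.00039. The complex V median was 0.075, with 12 of 16 above 0. Above both controls were 8 (50%, against 24.0% of all genes), and below both were 2 (12.5%, against 34.5%).

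The 2 knockdown cultures gave the members like medians, but the control cultures were not alike over these genes. Against the control mean the members' median was 0.074 in Gld2 shRNA replicate 1 and 0.078 in replicate 2, with 59 and 62 of 75 above 0, while over all genes the medians were -0.023 and -0.013, with 6166 and 6869 of 14497 above 0. Between the controls, scrambled shRNA replicate 2 exceeded scrambled shRNA replicate 1 in 55 of 75 members by a median of 0.045, against 7434 of 14497 and a median of 0.0032 over all genes. Set against scrambled shRNA replicate 1 alone the members' median was 0.10, and against scrambled shRNA replicate 2 alone it was 0.054. Both knockdown cultures exceeded scrambled shRNA replicate 2 in 48 members, against 4577 of 14497 over all genes. In complex III the knockdown cultures disagreed, with medians of -0.026 and 0.039, and in complex IV they were 0.070 and 0.12.

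**Figure D3:**
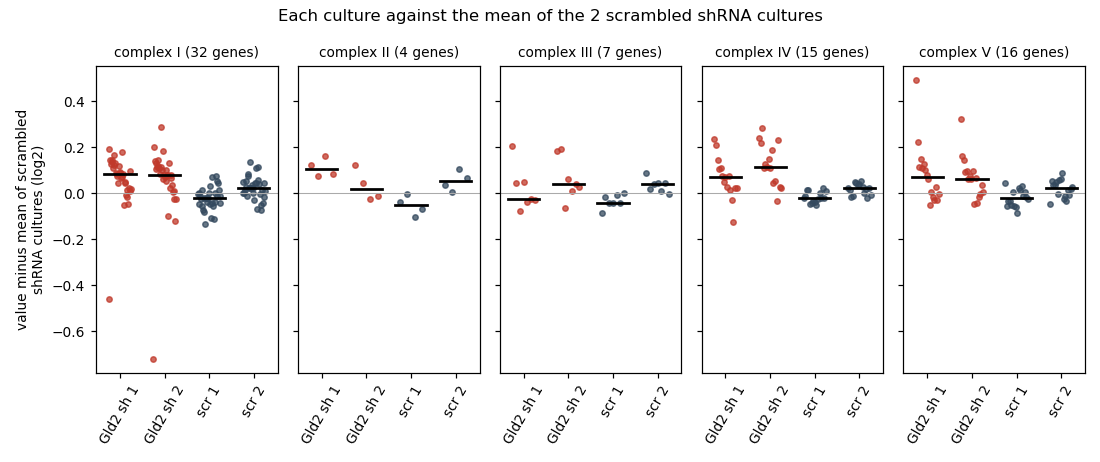
Each member's value in each culture minus its mean in the 2 scrambled shRNA cultures (y axis, log2), by complex, with Gld2 shRNA (sh) cultures in red, scrambled shRNA (scr) cultures in dark blue and medians as black lines. The medians of complexes I, IV and V are above 0 in both knockdown cultures, and scrambled shRNA replicate 2 lies above replicate 1 in the medians of all 5 complexes shown.

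Most members were bright and most were short genes, and the difference over the whole array varied with both properties. By decile of signal, the median difference of all genes was 0.084 and 0.099 in the second and the third. It was -0.10 and -0.099 in the sixth and the seventh, and 0.0058 in the brightest, so it did not climb steadily with brightness. In the second and the third, the medians against the control mean were 0.0089 and 0.023 in Gld2 shRNA replicate 1. In Gld2 shRNA replicate 2 they were 0.15 and 0.17, so the rise there was mostly that of replicate 2. By decile of gene length the median difference was 0.055 in the second and -0.087 in the ninth. Of 75 members 47 were in the brightest 10% of genes by signal, and their median genomic length was 7088 bases in the RefSeq table of GRCr8 against 18043 over all genes. In the brightest 10% of all genes 32.1% lay above both controls. In the 667 of these that were not longer than the median length, the median was 0.031 and 45.3% lay above both controls. The 40 members in that same class had a median of 0.095 with 67.5% above both controls. These 40 are counted among the 667 genes, and the difference between them and the rest was not tested. With the trend of each array against gene length removed, the members' median was 0.058 and 33 (44.0%) lay above both controls, against 29.4% of all genes. With cyclic loess and then the length trend removed, a setting chosen after the data were seen, it was 0.060 and 34 (45.3%), against 29.6%. Over these and the other scalings tried, the members' median lay between 0.058 and 0.153 and that over all genes between -0.039 and 0.055.

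**Figure D4:**
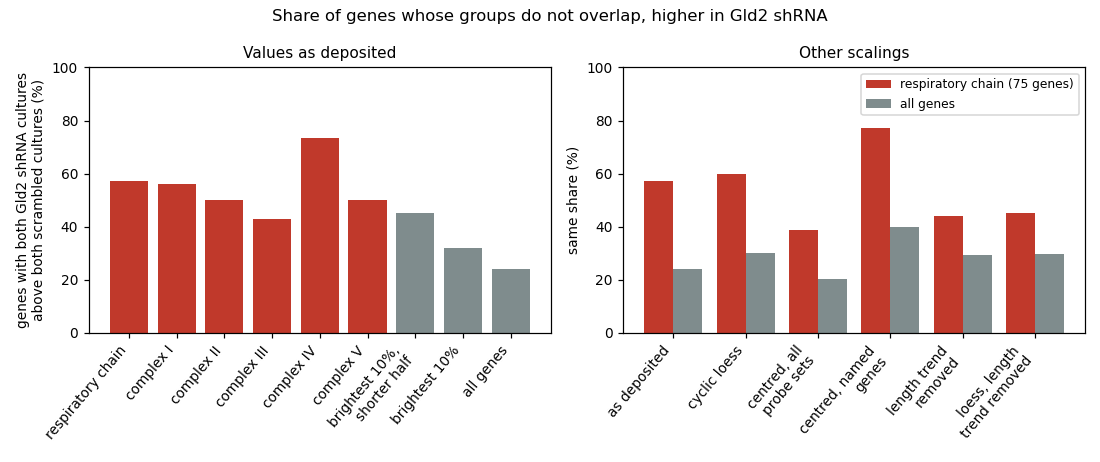
Percentage of genes in which both knockdown cultures exceed both controls (y axis), on the left for the 75 members, their complexes, the brightest 10% of genes and all genes, and on the right for members (red) and all genes (grey) under other scalings. The members' share runs from 38.7% with arrays centred on all probe sets to 77.3% with arrays centred on named genes, against 20.2% and 40.0% of all genes.

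For 9 members a further probe set was measured, and 8 of the 9 had differences above 0. In 7 of them the sign was that of the probe set used above. The exceptions were Cox5a, whose further probe set stood at 11.07 and 11.00 in the knockdown cultures and 10.71 and 10.30 in the controls (0.53, limma over all probe sets, adjusted p = 0.141), and Ndufv3 (-0.10 against 0.095). The further Ndufs5 probe set stood at 10.81 and 10.92 in the knockdown cultures and 10.74 and 10.27 in the controls (0.36). In both Cox5a and Ndufs5 scrambled shRNA replicate 2 was the lowest array. The remaining 6, of Ndufb4, Uqcrb, Cox7a2, Atp5mc2, Atp5mc3 and Atp5pd, lay between 0.026 and 0.13. Processed copies of many of these genes are known in rodent genomes. Whether a probe set, the one used or a further one, took up signal of a copy was not tested.

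Lists of genes that build, regulate or feed the chain had lower medians than its subunits, though single genes such as the assembly factors Uqcc3 (0.23) and Lyrm7 (0.14) and the regulator Esrrb (0.21) lay above most subunits. Of the assembly factors 0 of 29, and of the regulators 0 of 22, were in the brightest 10% of genes by signal, and all genes in the fifth to the eighth decile had medians between -0.10 and -0.061. These lists were drawn up from general knowledge with the earlier results known. Assembly factors are proteins that put the complexes together without staying in them, and 2 of 29 measured fell, 0 rose and 27 did not pass. Ttc19, which acts on complex III, fell by 0.59 on the log2 scale, with 9.82 and 9.83 in the knockdown cultures against 10.48 and 10.34 in the controls (limma, adjusted p = 0.0153). Atpaf1, which assembles the catalytic head of the ATP synthase, fell by 0.62, with 9.21 and 8.90 in the knockdown cultures against 9.72 and 9.63 in the controls (limma, adjusted p = 0.0417). The list's median was -0.041, with 2 members above both controls (6.90%, against 24.0% of all genes) and 12 below (41.4%, against 34.5%), and calls downward made up 2.41% of all genes.

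Of 22 measured regulators of mitochondrial genes 1 fell (against 2.41% of all genes), 0 rose (against 1.69%) and 21 did not pass, with a median of -0.093. Of the 22, 13 lay below both controls (59.1%, against 34.5% of all genes). Pprc1, a coactivator related to PGC-1, stood at 9.05 and 9.05 in the knockdown cultures against 9.41 and 9.38 in the controls (-0.34, limma, adjusted p = 0.0402). Ppargc1b, a coactivator of the same family, was at -0.22 (limma, adjusted p = 0.102). Of 15 genes of pyruvate dehydrogenase and the citric acid cycle 1 fell, 0 rose and 14 did not pass, against the same shares of all genes, with a median of -0.0093 and 7 below both controls (46.7%). Dld, the dehydrogenase shared by several of these enzyme complexes, stood at 10.36 and 10.29 in the knockdown cultures against 10.85 and 10.80 in the controls (-0.50, limma, adjusted p = 0.0185). Ogdh, which encodes a partner enzyme, was at -0.16. The difference between these lists and the subunits was not tested.

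**Figure D5:**
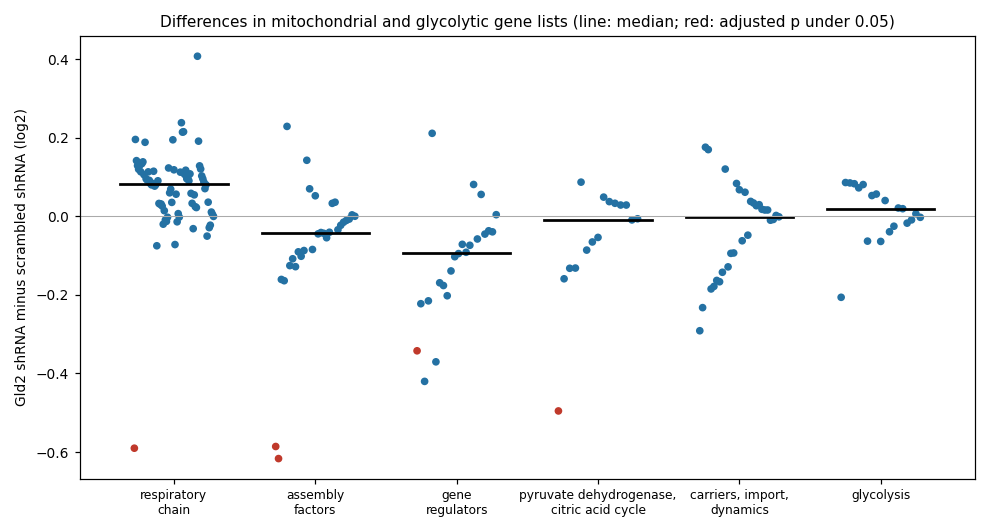
Differences (y axis, log2, Gld2 shRNA minus scrambled shRNA) of the respiratory chain members and of 5 related gene lists, 1 point per gene, with medians as black lines. Red points passed the adjusted threshold, and all 5 of them (Ndufa10, Ttc19, Atpaf1, Pprc1 and Dld) lie below 0, while the median is 0.083 in the members and -0.093 in the regulators.

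Marker genes of neurons were lower in sum in the knockdown cultures, those of microglia, mostly dim, were higher, and those of astrocytes and the oligodendrocyte lineage were mixed. On the linear scale 14 neuron markers summed to 82232 to 82407 in the knockdown cultures and 85153 to 86385 in the controls. Of these markers 2 fell, Elavl4 (-0.73) and Dcx (-0.38). The list's median was -0.035, with 50% below both controls, and its median gene length was 51411 bases. In the eighth and the ninth decile of gene length, all genes had medians of -0.056 and -0.087. Of those genes 44.5% and 53% lay below both controls. The part of gene length in the lower neuron sum was not tested. Of 7 astrocyte markers Gja1 (-0.39) fell. S100b (0.11), Gfap (0.10), Aqp4 (0.072) and Aldh1l1 (0.054) lay above both controls without passing (57.1%, against 24.0% of all genes). Counting Gja1, 3 of the 7 were below 0. Below both controls were 2 of the 7 (28.6%, against 34.5% of all genes). The list's median was 0.054, and the sums were 35715 to 36923 in the knockdown cultures and 36387 to 36544 in the controls. Of 8 oligodendrocyte lineage markers Cnp (0.54) rose, while Mbp, the gene of myelin basic protein, lay below both controls (-0.29, limma, adjusted p = 0.0799) and 6 of the 8 were above 0. The sums of this list were 8783 to 9187 in the knockdown cultures against 8131 to 8315 in the controls. Over all genes 1.69% rose and 2.41% fell at the adjusted threshold. None of 8 microglia, 7 endothelial and mural, 4 fibroblast or 5 dividing cell markers passed in limma. At an unadjusted p under 0.05 in limma there were 2, 3, 0 and 1 of them, against 25.4% of all genes. The 2 microglia markers were higher, 2 endothelial and mural markers were higher and 1 lower, and the dividing cell marker was lower. Microglia markers summed to 1553 to 1577 in the knockdown cultures and 1430 to 1437 in the controls. Apart from Cx3cr1 and Cd68, they lay in the second and the third decile of signal. There the medians of all genes were 0.084 and 0.099, against 0.13 over this list. Both knockdown cultures lay above both controls in 34.4% and 38.9% of those genes, against 75% of the list. Against the control mean the list's median was 0.10 in Gld2 shRNA replicate 1 and 0.20 in replicate 2. The part of dim signal in this rise was not tested. The RMA scale has no zero, so absence of a marker cannot be read from it. The part of cell makeup in the members' differences was not tested.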

How the data were processed

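Poly(A) RNA of 4 rat hippocampal cultures was hybridised to 4 arrays. The deposited values are log2 intensities. The submitters' processing notes name RMA and affy, with versions and settings not given in the sources used here. RMA brings arrays to a common distribution, so a difference is relative to the other genes. No further normalization was applied. Of 28826 probe sets, 15209 had 1 gene symbol in the platform annotation, 306 several and 13311 none. Each of 14497 genes was taken as its probe set with the highest mean over the 4 arrays. All 75 members matched the RefSeq table of GRCr8 by gene ID.

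Groups were compared with lmFit and eBayes in limma 3.58.1 (R 4.3.3), as two-sided tests whose p-values were adjusted by Benjamini-Hochberg over 14497 genes, 2 residual and 3.96 prior degrees of freedom, and a threshold of 0.05. Intervals are 95%. The script was tested on simulated data. Members, lists and tests were chosen with earlier results of these data known. Named were every called member, the 4 smallest p and both extremes of each complex, fixed core subunits, tissue forms, members with several probe sets, and the called genes and 2 smallest p of each related list. Alternatives are given at the end, and 2 were added after the data were seen.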

Additional observations from a re-analysis of the deposited data

How the results depend on the processing

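Differences of all 28 members of at least 0.1 in size kept their sign in those of the 17 settings in which they were fitted. The level filters left some out, so Ndufa10 and Cox6b2 were fitted in 16 and Cox4i2 and Cox8c in 15. Settings that change only the test, the threshold or the filter leave a difference as it is, so no sign could turn there. Of the smaller differences, 30 turned sign in at least 1 setting, none of them as a call. Over all genes, 245 were called higher, against 621 with the prior variance made dependent on level, 370 after cyclic loess, 558 with arrays centred on their median, 467 at an adjusted p under 0.1, 1 without moderation and 82 to 1283 without 1 culture. Those called lower were 349, against 1611 with the level-dependent prior, 949 and 1287 without genes under the 25th percentile or the median level, 1367 with arrays centred on their median, 94 when centred on named genes, 116 with all probe sets tested, 1017 at an adjusted p under 0.1, 0 without moderation and 3 to 1406 without 1 culture. Members called higher were 0, against 11 with the level-dependent prior, 2 and 4 with those filters, 2 after cyclic loess, 1 with either centring, 1 after loess with the length trend removed, 2 at an adjusted p under 0.1 and 0 to 2 without 1 culture. With the final digits of the titles as a replicate block there was 1 (Atp5mk), with 233 genes higher and 332 lower over all. Deviations of same-numbered cultures correlated at 0.143, and nothing in the labels pairs them. Ndufa10, the 1 member called lower, was lost (0 called) when centred on named genes, with all probe sets, without moderation and without either scrambled shRNA culture (0 to 1 without 1 culture), and was not tested among genes above the median level. Tent2 kept its call except without moderation (-1.28, limma, adjusted p = 0.221).

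The members' median of 0.083 was 0.15 when centred on named genes, which like the loess and length step was chosen after the data were seen, and 0.054 to 0.10 without 1 culture. In the same centring the medians were 0.16 in complex I, 0.13 in complex II, 0.077 in complex III, 0.18 for Cycs, 0.17 in complex IV and 0.15 in complex V. With the length trend removed complex I was at 0.057 and complex IV at 0.051, and after loess and that step complex IV was at 0.039 and complex V at 0.018. Without 1 culture the medians were 0.065 to 0.11 in complex I, 0.011 to 0.13 in complex II, -0.026 to 0.051 in complex III, 0.076 to 0.15 for Cycs, 0.055 to 0.13 in complex IV and 0.023 to 0.11 in complex V. Signal over background was not available, so it limits the dim tissue forms in a way that was not tested. The cause of these shifts was not tested.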

Other observations

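Genes of mitochondrial carriers, import and dynamics were balanced around 0. Of 29 measured, 0 passed the adjusted threshold in limma, with 2 higher (6.90%, against 9.24% of all genes) and 5 lower (17.2%, against 16.2%) at an unadjusted p under 0.05, and the median difference was -0.0014. Mfn1, a GTPase that fuses outer membranes, stood at 10.42 and 10.21 in the knockdown cultures against 10.59 and 10.62 in the controls (-0.29, limma, adjusted p = 0.112). Tomm70, a receptor of the import machinery, was at -0.23 (limma, adjusted p = 0.125). Hspe1, the small chaperonin of the matrix, stood at 11.60 and 11.65 in the knockdown cultures and 11.45 and 11.46 in the controls, a difference of 0.18 that did not pass (limma, adjusted p = 0.151).

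Glycolysis genes gave 0 calls among 19 measured in limma, with 1 lower at an unadjusted p under 0.05 (5.26%, against 16.2% of all genes), and a median of 0.019. The glucose transporter Slc2a1 stood at 11.71 and 11.58 in the knockdown cultures against 11.86 and 11.84 in the controls (-0.21, limma, adjusted p = 0.144). Gapdh, a glycolytic enzyme often taken as a control gene, stood at 14.13 and 14.17 in the knockdown cultures and 14.03 and 14.09 in the controls, a difference of 0.086 that did not pass.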
